A study of Rattus norvegicus with 24 samples.

Results

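The hairpin miR-142 yields the mature miRNAs rno-miR-142-3p and rno-miR-142-5p, and both were followed here in peripheral blood mononuclear cells (PBMC) of rats. The members are the array entries whose name is exactly one of these, which gave 2 of the 677 miRNAs on the array. Both were detected on all 24 arrays, and both are among the 210 miRNAs that were detected on at least 3 arrays and tested.

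PBMC of female Wistar rats were profiled with rat miRNA arrays from Agilent, read in a single colour, in 12 groups of 2 arrays. Rats were killed at blood sampling, so each array holds the cells of a separate collection. Healthy rats (NORA in the labels, NOCIA in the study) and untreated rats with collagen-induced arthritis (RA in the labels, CIA in the study) were sampled before therapy (T0). All later groups were sampled at 1 hour and at 34 days.

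All arthritic groups share the immunisation with bovine type II collagen in Freund's adjuvant, a model of rheumatoid arthritis. AP (MS in the study) received needle insertion and twirling at points of the lower back and the leg, MTX received injections of the antirheumatic drug methotrexate into the peritoneum, and PLA received saline in its place. ANE had no therapy and was sampled under isoflurane, while AP, MTX and PLA were sampled under ether, so ANE differs from PLA in injection and in anaesthetic at once. NORA was neither immunised nor treated. The labels of NORA at 34 days disagree in a single line, which gives 1 hour, and the sampling time in their titles was followed. PBMC are a mixture of lymphocytes and monocytes with some platelets and red cells, and in such bulk samples fewer cells of a type and less RNA per cell cannot be told apart.

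Mature miRNAs are short RNAs that guide Argonaute proteins to messenger RNAs, mostly by pairing of the seed, bases 2 to 8, with the target. A hairpin precursor is cut into a duplex of its 5' and 3' arms, and either arm can be loaded. miR-142 is made in nearly all blood cell lineages and in few other cells, and mice without it have defects in lymphocytes, dendritic cells and platelets, so it serves as a general mark of leukocyte RNA.

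The sequences of both arms and of the hairpin are shown because the arms differ in their seeds, and so in the messages they can pair with. They come from RefSeq on build GRCr8, in which both members were matched. The seeds are in capitals in the mature miRNAs, and the arms are in capitals in the hairpin.

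rno-miR-142-5p: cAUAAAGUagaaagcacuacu

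rno-miR-142-3p: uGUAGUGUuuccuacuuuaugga

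Mir142: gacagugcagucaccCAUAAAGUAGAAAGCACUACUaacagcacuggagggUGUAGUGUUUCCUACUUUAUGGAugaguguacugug

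The hairpin of 87 bases lies on the plus strand at chr10:73055104-73055190, within the span of the protein-coding gene Tspoap1. miR-142-5p, of 21 bases, lies at chr10:73055119-73055139, and miR-142-3p, of 23 bases, at chr10:73055155-73055177. A predicted fold placed 19 base pairs between the arms, with all 7 seed bases of each arm paired and 15 bases in the loop between them. Neither seed was shared with another of the 724 mature rat miRNAs in that table, so neither arm has a seed relative there. Each arm had 2 probes of 10 spots on the array, and on every array all 20 spots of each arm were well above background and 0 were saturated.

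Before scaling, the total intensity of miR-142-3p ran from 7592 in RA at T0 replicate 2 to 29948 in AP at 34 days replicate 1. That of miR-142-5p ran from 617 to 2004 in these same libraries. The arrays differed in overall brightness, with a summed intensity of detected miRNAs between 137540 and 519920, and the brightest were replicate 1 of AP at 34 days and replicate 1 of AP at 1 hour. miR-142-3p held between 4.34% and 7.18% of the summed intensity (median 5.76%), a share that also depends on how strongly its probes bind. For comparisons each array was scaled to a common 75th percentile over the 132 miRNAs detected on all arrays, and levels are given as log2 of that scaled intensity. The arrays lie on 3 slides of 8. Slide 1 held ANE at 1 hour with AP, MTX and PLA at 34 days, slide 2 held NORA and RA at T0 with NORA and ANE at 34 days, and slide 3 held NORA, AP, MTX and PLA at 1 hour. Groups on different slides carry any difference between slides.

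With the scaling used here, no comparison of either arm, or of their ratio, among healthy, arthritic and treated rats passed the test. With so few arrays a group, this does not show that the levels were the same. Across the 24 arrays miR-142-3p stayed between 13.15 and 13.88 (median 13.51, SD 0.16), and miR-142-5p between 9.14 and 10.80 (median 9.99, SD 0.34). The replicate arrays of a group differed about as much as the groups did.

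Before therapy, miR-142-3p was at 13.43 and 13.55 in NORA and at 13.72 and 13.15 in RA. miR-142-5p was at 10.09 and 10.14 in NORA and at 10.32 and 9.53 in RA. For each arm, replicate 1 of RA was above both healthy arrays and replicate 2 was below both, so the groups overlapped fully. The SD of miR-142-3p was 0.40 in RA and 0.08 in NORA.

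At 1 hour, miR-142-3p was at 13.66 and 13.44 in NORA, at 13.38 and 13.69 in AP, at 13.53 and 13.56 in MTX, at 13.63 and 13.62 in PLA and at 13.45 and 13.29 in ANE. miR-142-5p was at 10.25 and 9.82 in NORA, at 9.14 and 10.36 in AP, at 9.91 and 10.17 in MTX, at 10.10 and 9.81 in PLA and at 9.92 and 9.54 in ANE. Replicate 1 of AP had the lowest miR-142-5p of all 24 arrays, while replicate 2 of the same group had the second highest. The groups of slide 3 overlapped one another in miR-142-5p.

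At 34 days, miR-142-3p was at 13.40 and 13.49 in NORA, at 13.74 and 13.39 in AP, at 13.54 and 13.88 in MTX, at 13.64 and 13.42 in PLA and at 13.33 and 13.48 in ANE. miR-142-5p was at 10.12 and 9.95 in NORA, at 9.83 and 9.64 in AP, at 9.69 and 10.80 in MTX, at 10.24 and 10.03 in PLA and at 9.77 and 10.04 in ANE. Both AP arrays had less miR-142-5p than both PLA arrays, and 8 of all 66 pairs of groups (12.1%) did not overlap in this arm. With 2 arrays a group a lack of overlap is weak evidence, and its share over all miRNAs was not counted. Replicate 1 of MTX lay between the AP arrays and replicate 2 above both PLA arrays. That replicate 2 of MTX had the most of both arms of all 24 arrays.

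**Figure D1:**
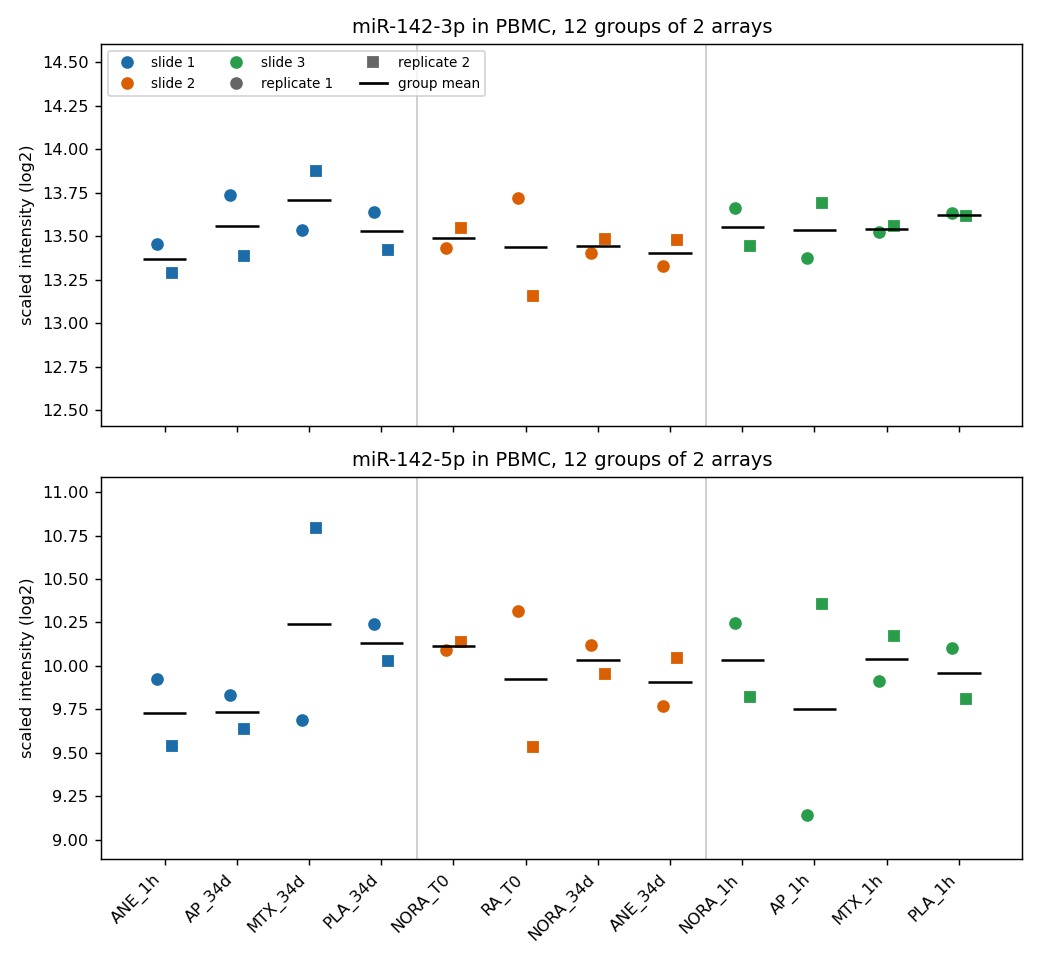
Scaled intensity (log2, y axis) of miR-142-3p (upper panel) and miR-142-5p (lower panel) on each of the 24 arrays, by group, with circles for replicate 1, squares for replicate 2, colours for the slide and a bar for the group mean. Both panels span the same number of log2 units, and the arrays of most groups intermingle, with miR-142-3p between 13.15 and 13.88 and miR-142-5p between 9.14 and 10.80.

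In the order of group means, miR-142-3p was highest in MTX at 34 days (13.71 ± 0.24, SD, n = 2) and lowest in ANE at 1 hour (13.37 ± 0.11). PLA at 1 hour (13.63 ± 0.01) and AP at 34 days (13.56 ± 0.25) came next to the top, and ANE at 34 days (13.40 ± 0.10) and RA at T0 (13.44 ± 0.40) next to the bottom. For all 11 pairs of neighbours in this order the arrays overlapped, and the largest step between neighbours, 0.08, was below the SD within groups of 0.19. No order among neighbours can therefore be read.

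miR-142-5p was also highest in MTX at 34 days (10.24 ± 0.78) and lowest in ANE at 1 hour (9.73 ± 0.27). PLA at 34 days (10.13 ± 0.15) and NORA at T0 (10.11 ± 0.03) came next to the top, and AP at 34 days (9.74 ± 0.14) and AP at 1 hour (9.75 ± 0.86) next to the bottom. The largest step, 0.15, was again below the SD within groups, 0.41, and all 11 neighbours overlapped. The SD of the 12 group means was 0.09 for miR-142-3p and 0.17 for miR-142-5p, below the 0.13 and 0.29 that the spread within groups alone would give.

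A limma fit over the 12 groups found no difference among them for miR-142-3p (F = 0.47, adjusted p = 0.924) or miR-142-5p (F = 0.36, adjusted p = 0.976), where 2.38% of the 210 miRNAs tested were called. Within slides, where slide and group are not mixed, limma's F test gave adjusted p-values of 0.60 and 0.63 on slide 1 (background 0.476% called), 1.00 and 1.00 on slide 2 (0.952%) and 1.00 and 1.00 on slide 3 (0.952%), in the order 3p and 5p.

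Of 19 comparisons between groups, limma called 0 for miR-142-3p and 0 for miR-142-5p, and 0 had an unadjusted p under 0.05. The share of all 210 miRNAs called was 19% for AP at 34 days against RA at T0, and neither arm was among them. It was 2.38% for NORA at 1 hour against T0, and 1.43% for MTX at 1 hour against RA at T0. It was 0.952% for RA against NORA at T0, for PLA at 1 hour against RA at T0, for NORA at 34 days against T0 and for AP against PLA at 1 hour. It was 0.476% for ANE at 1 hour against RA at T0 and for the change of AP to 34 days set against that of NORA, and 0% in the other 10 comparisons. Several of these comparisons share their control arrays, RA at T0 or NORA at T0, and so are not independent.

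For arthritis itself, RA minus NORA at T0 was -0.05 (log2, SE 0.20, limma adjusted p 0.980) for miR-142-3p and -0.19 (SE 0.39, adjusted p 0.980) for miR-142-5p. Both are far smaller than the gap between the RA replicates, and both turned sign with the 75th percentile over all miRNAs, to 0.16 and 0.021, and without replicate 2 of RA, to 0.23 and 0.20.

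The differences at 1 hour also missed the test. In the 8 comparisons that hold a group sampled at 1 hour, the largest difference was 0.19 in size for miR-142-3p and 0.21 for miR-142-5p, with smallest limma adjusted p-values of 0.670 and 0.772.

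At 34 days, MTX minus RA at T0 was the highest of the 19 differences for both arms, 0.27 (SE 0.20, limma adjusted p 0.790) for miR-142-3p and 0.32 (SE 0.39, adjusted p 0.790) for miR-142-5p. These values rest on single arrays. Without replicate 2 of MTX the difference was 0.10 for miR-142-3p and -0.24 for miR-142-5p. Without replicate 2 of RA it was -0.015 for miR-142-3p and -0.074 for miR-142-5p.

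For miR-142-5p at 34 days, AP minus MTX was -0.51 (SE 0.39, limma adjusted p 0.445) and AP minus PLA was -0.40 (SE 0.39, adjusted p 0.451), both compared on slide 1. The value against MTX turned to 0.046 without replicate 2 of MTX and was -1.06 without its replicate 1. AP minus PLA was 0.03 (SE 0.20, adjusted p 0.944) for miR-142-3p, and AP minus MTX was -0.15 (SE 0.20, adjusted p 0.637). Against RA at T0, AP at 34 days differed by 0.12 (SE 0.20, adjusted p 0.650) for miR-142-3p and by -0.19 (SE 0.39, adjusted p 0.742) for miR-142-5p. For miR-142-3p the authors' table gave larger values, with limma, of 0.72 for AP at 34 days minus RA at T0 (adjusted p 0.067) and 0.62 for AP minus PLA (adjusted p 0.101).

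The 95% intervals say how large a change could have been missed. Over the 18 comparisons of a pair of groups, none of the intervals reached beyond 1.61-fold in either direction for miR-142-3p, and none beyond 2.55-fold for miR-142-5p. A 2-fold change of miR-142-3p is outside every such interval with this scaling, while 9 of the 18 intervals of miR-142-5p reach past 2-fold. The limit for miR-142-3p depends on the normalisation. Its farthest end was 2.54-fold in the authors' table, where 5 of the 18 intervals passed 2-fold, 3.12-fold with the 75th percentile over all miRNAs (15 of 18), 4.12-fold without scaling (12 of 18) and 2.31-fold when only the arrays compared were fitted (3 of 18).

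**Figure D2:**
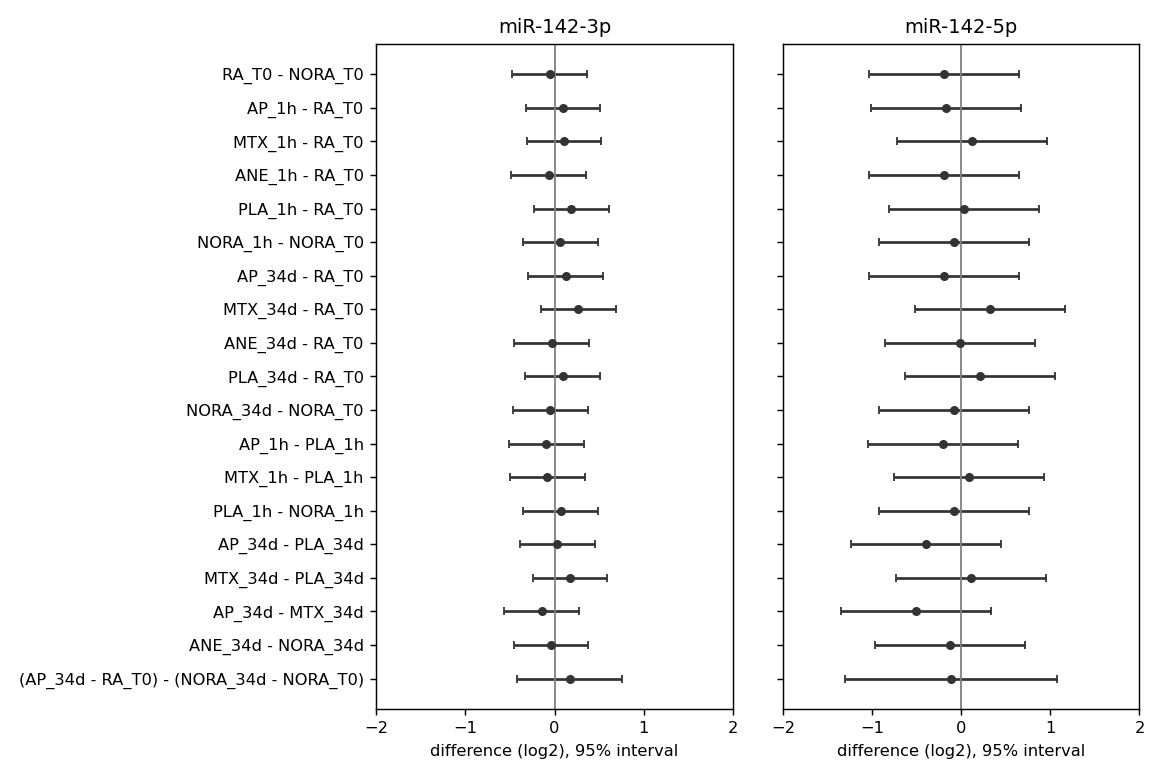
Difference between groups (log2, x axis) with its 95% interval from limma for miR-142-3p (left) and miR-142-5p (right) in each of the 19 comparisons, named as the first group minus the second. Every interval holds 0, and those of miR-142-5p, with an SE of 0.39 for a pair of groups, are wider than those of miR-142-3p, with 0.20.

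With the scaling used here, miR-142-3p varied less than miR-142-5p. Among the 132 miRNAs detected on all arrays, the SD of miR-142-3p over the 24 arrays, 0.16, ranked 13 from the lowest, and that of miR-142-5p, 0.34, ranked 70, near the median SD of 0.31. Within groups the SD was 0.19 for miR-142-3p and 0.41 for miR-142-5p, against a median of 0.28. Among the 20 brightest miRNAs, whose median SD was 0.25, miR-142-3p had the fourth lowest. In 9 of the 12 groups the replicates differed more in miR-142-5p than in miR-142-3p, with a median gap of 0.28 against 0.19 and a largest gap of 1.21 against 0.57. In the authors' table the order turned, with an SD over the arrays of 0.33 for miR-142-3p (rank 74) and 0.30 for miR-142-5p (rank 62), and without scaling it was 0.48 against 0.38. Under the other 4 scalings tried the SD was 0.18 to 0.41 for miR-142-3p and 0.33 to 0.56 for miR-142-5p, lower for miR-142-3p in each.

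With the same scaling, the spread of miR-142-3p can be set beside a list of 12 miRNAs found in leukocytes, here called the leukocyte list. Not all of its entries are particular to leukocytes. Of these 12, 11 are on the array under those names and miR-155 is not. All 11 varied more over the arrays than miR-142-3p, from 0.20 for miR-26a to 0.97 for miR-150, a miRNA of mature lymphocytes. In AP at 34 days against RA at T0, limma called 3 of the 11 as higher and 0 as lower, beside 19% of all tested. These were miR-223, a miRNA of granulocytes and monocytes (0.89, SE 0.25, adjusted p 0.038), miR-24 (0.78, SE 0.24, adjusted p 0.041) and miR-26a (0.61, SE 0.17, adjusted p 0.038). The median of the list was -0.65 against 0.16 over all tested, with the lowest value, -2.43, for miR-150 (SE 0.89, adjusted p 0.055). In the other 18 comparisons 0 of the 11 were called, among them AP against PLA at 34 days, which share slide 1. AP at 34 days and RA at T0 lie on different slides, so group and slide are mixed in the 3 calls.

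**Figure D3:**
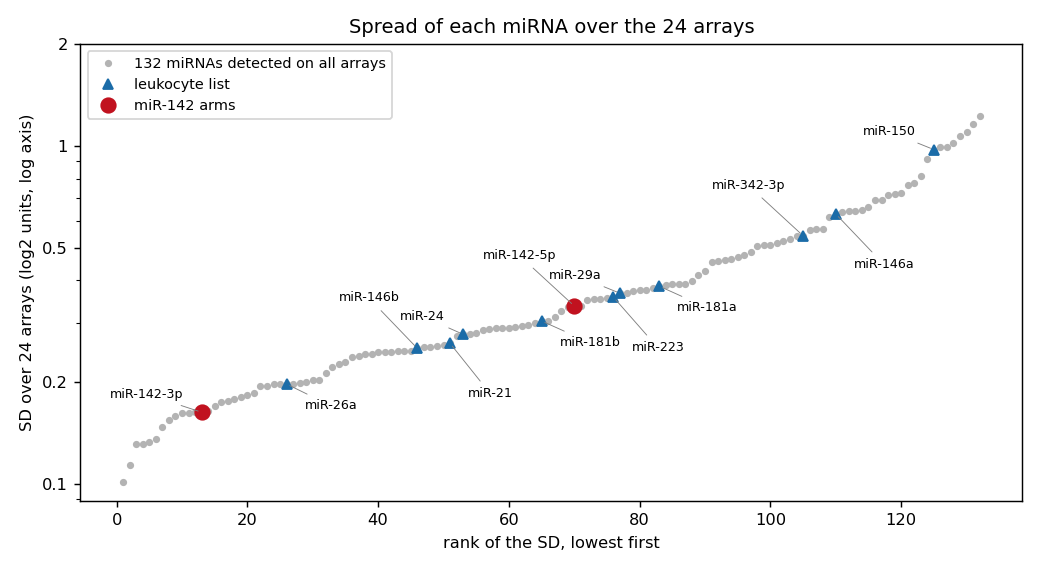
SD over the 24 arrays (log2 units, log axis) of the 132 miRNAs detected on all arrays, ordered from the lowest. Levels were scaled to the common 75th percentile. The arms of miR-142 are red circles and the 11 measured entries of the leukocyte list are blue triangles. miR-142-3p (0.16) lies below all 11, and miR-142-5p (0.34) lies among them.

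The summed level of the leukocyte list ranged over the group means from 15.65 in AP at 1 hour to 16.08 in ANE at 1 hour. That list has 11 entries on the array, among them the lymphocyte entries and miR-223, whose changes can cancel in a sum. In AP at 34 days against RA at T0, miR-150 differed by -2.43 and miR-223 by 0.89. The range of this sum is therefore not comparable with those of the shorter lists that follow. The list of lymphocyte miRNAs (3 of 3 detected on all arrays) had a summed level between 11.93 in AP at 34 days and 13.81 in RA at T0. miR-223, the only entry of the myeloid list, ran from 12.43 in RA at T0 to 13.49 in ANE at 1 hour. The red cell list (2 of 3 on the array, both detected on all arrays) ran from 12.57 in ANE at 1 hour to 14.74 in ANE at 34 days. The platelet and endothelial list (3 of 3 on the array, 1 of them detected on all arrays) ran from 6.45 in PLA at 34 days to 7.31 in AP at 34 days. Its entries did not move together. Between these groups miR-126 went from 5.86 to 7.15 and miR-21*, detected on 19 arrays, from 4.01 to 3.14. The entry miR-126* was detected on 2 arrays. Of the muscle list 3 of 3 were detected on 0 arrays. The liver miRNA miR-122 was detected on 9 arrays. The part of these mixtures in the levels of miR-142 was not tested.

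With the scaling used here, the arms rose and fell together from array to array. Over the 24 arrays Pearson's r between their scaled levels was 0.73 (permutation p 6e-05, adjusted 0.00012) and Spearman's rho was 0.72 (permutation p 0.00019, adjusted 0.00076), with p-values adjusted over the 4 relations computed here. Without the arrays farthest from the median of miR-142-3p, replicate 2 of MTX at 34 days and replicate 2 of RA at T0, r was 0.60 (permutation p 0.0024). Within slides 1 to 3, r was 0.78, 0.91 and 0.86 (exact permutation p 0.019, 0.0028 and 0.0044, n = 8 each). There rho was 0.71, 0.76 and 0.81 (exact permutation p 0.058, 0.037 and 0.022).

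In 11 of the 12 groups the replicate with more miR-142-3p also had more miR-142-5p, the exception being NORA at 34 days. Over the 12 group means r was 0.46 (permutation p 0.131), so the relation was between arrays and could not be shown between groups. Both levels were divided by the same scale factor, which can by itself add to r, and the permutation test does not remove this. Without any scaling r was 0.87. In the authors' processed log2 table, whose normalisation differs, r was 0.24 (permutation p 0.227). The relation therefore depends on the normalisation.

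Over the same 24 arrays, the miRNA most like each arm, out of the other 131, was its partner arm. For miR-142-3p the next were miR-101a (r = 0.68), miR-423* (0.60), miR-466b (0.55) and miR-29b (0.48). For miR-142-5p they were miR-29c (0.72), miR-7a-1* (0.71), miR-146a (0.67) and miR-101a (0.65), close behind its partner. These r describe scaled levels that share arrays and scale factors, and in the authors' table miR-142-5p ranked 74 among the 131 for miR-142-3p. Against the 11 entries of the leukocyte list, r ran from -0.19 to 0.13 for miR-142-3p. For miR-142-5p it ran from -0.44 for miR-24 to 0.67 for miR-146a (median 0.47). In the authors' table the same r ran from -0.82 for miR-150 to 0.80 for miR-26a for miR-142-3p and from -0.30 to 0.39 for miR-142-5p, so likeness to these miRNAs depends on the normalisation.

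The ratio of the arms was taken on each array as log2 of miR-142-5p minus log2 of miR-142-3p, which removes the scaling. Its value is not a ratio of molecules, since each arm is read by its own probes, and only its change between arrays is used. At T0 the ratio was -3.34 and -3.41 in NORA and -3.41 and -3.62 in RA. At 1 hour it was -3.42 and -3.62 in NORA, -4.23 and -3.34 in AP, -3.62 and -3.39 in MTX, -3.53 and -3.81 in PLA and -3.53 and -3.75 in ANE. At 34 days it was -3.28 and -3.53 in NORA, -3.90 and -3.75 in AP, -3.85 and -3.08 in MTX, -3.40 and -3.40 in PLA and -3.56 and -3.44 in ANE. The lowest and the highest ratios of all arrays lay in groups whose other replicate was near the opposite end, AP at 1 hour and MTX at 34 days.

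Group means of the ratio ran from -3.38 ± 0.05 (SD, n = 2) in NORA at T0 to -3.83 ± 0.11 in AP at 34 days. limma's F test over the 12 groups gave 0.61 (adjusted p 0.864 over the 12 hairpins with both arms detected on all arrays), and of 19 comparisons 0 were called for miR-142, also at an unadjusted p under 0.05. Of the 12 hairpins, 8.33% were called in AP at 34 days against RA at T0 and in PLA against NORA at 1 hour, and 0% in the other 17 comparisons and in the F tests. The largest difference was AP minus PLA at 34 days, -0.43 (SE 0.27, limma adjusted p 0.235), where both AP arrays lay below both PLA arrays. Such a lack of overlap was found in 16 of all 66 pairs of groups (24.2%), and its share over all hairpins was not counted. This difference of AP from PLA was -0.87 in the authors' table (limma adjusted p 0.094) and -0.50 after normexp background correction (adjusted p 0.078). AP at 34 days minus RA at T0 was -0.31 (SE 0.27, limma adjusted p 0.390). It was -0.74 in the authors' table (limma adjusted p 0.163) and -0.47 after normexp (adjusted p 0.110). Other settings gave smaller values. Without the brightest arrays, replicate 1 of both AP groups, these differences were -0.35 from PLA and -0.24 from RA. With the first and the second probe alone, AP minus PLA was -0.45 and -0.40. For RA minus NORA at T0 the ratio differed by -0.14 (SE 0.27, limma adjusted p 0.822).

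**Figure D4:**
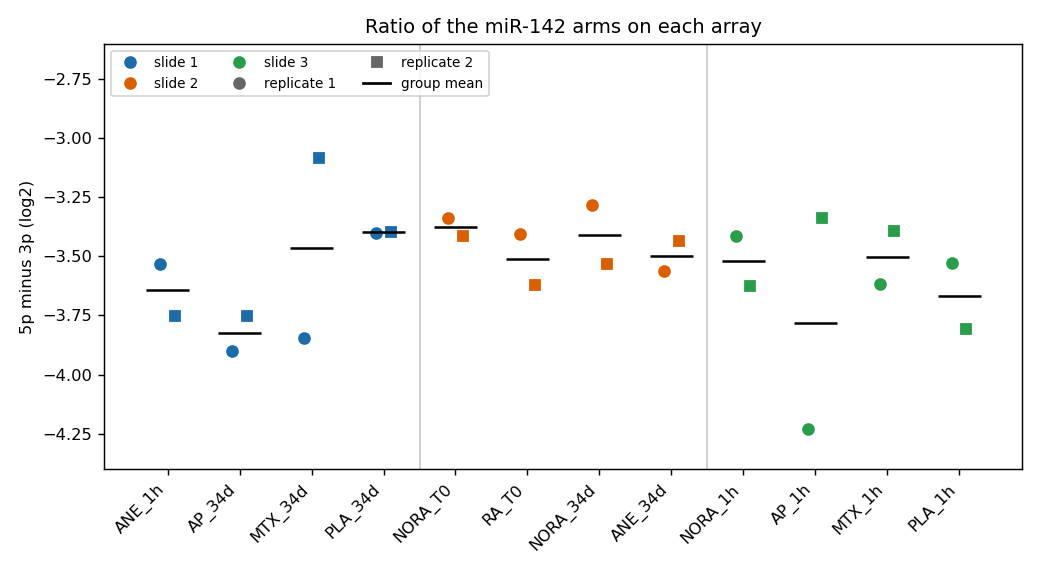
Ratio of the miR-142 arms on each array (log2 of miR-142-5p minus log2 of miR-142-3p, y axis) by group, with circles for replicate 1, squares for replicate 2, colours for the slide and a bar for the group mean. AP at 34 days has the lowest mean, -3.83, and the replicates of AP at 1 hour and of MTX at 34 days lie far apart.

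The arm ratio moved with the brightness of the array. It was lower where the array's 75th percentile of unscaled intensity was higher, with r = -0.79 over 24 arrays (permutation p 1e-05, the smallest that 100000 resamples can give, adjusted 4e-05) and rho = -0.65 (permutation p 0.00081, adjusted 0.0016). Without the brightest arrays, replicate 1 of AP at 1 hour and of AP at 34 days, r was -0.61 (permutation p 0.0025). Within slides r was -0.83 on slide 1 (exact permutation p 0.010, n = 8), -0.35 on slide 2 (exact permutation p 0.388, n = 8) and -0.90 on slide 3 (exact permutation p 0.011, n = 8). The matching rho were -0.90, -0.43 and -0.62 (exact permutation p 0.0046, 0.299 and 0.115). The sign was negative on each slide, but by rank the p-value was small on slide 1 only. So few arrays a slide cannot show that the relation was absent on the others. In 11 of the 12 groups the brighter replicate had the lower ratio.

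The scaled level of miR-142-5p had r = -0.60 with the 75th percentile (rho -0.61, permutation p 0.0018 for each, adjusted 0.0024 for each). Scaled levels are divided by this same percentile, so a negative r is partly built in for either arm. The permutation test does not remove this. For miR-142-3p r was -0.06 (permutation p 0.765, adjusted 0.765) and rho -0.21 (permutation p 0.317, adjusted 0.317). For miR-142-5p, without the same brightest arrays, r was -0.48 (permutation p 0.022), and within slides 1 to 3 it was -0.53, -0.41 and -0.84, with exact permutation p-values of 0.183, 0.320 and 0.026 (n = 8 each). The matching rho were -0.67, -0.62 and -0.60 (exact permutation p 0.083, 0.115 and 0.132). Within-slide r for miR-142-3p was 0.09, -0.37 and -0.54. The part of brightness in the low ratio of AP at 34 days was not tested.

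**Figure D5:**
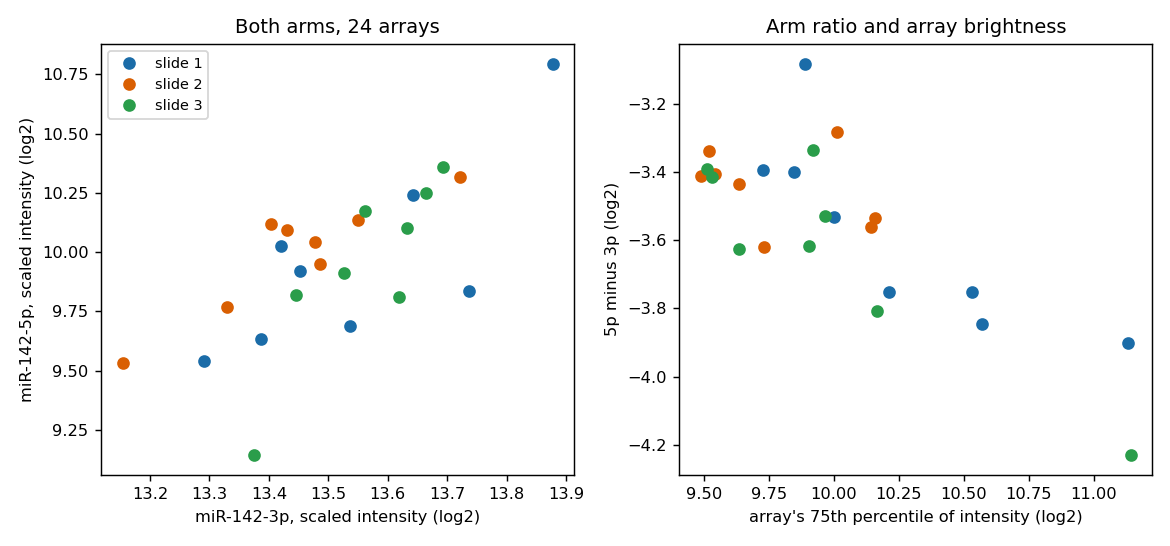
Left, scaled intensity (log2) of miR-142-5p against that of miR-142-3p on the 24 arrays (r = 0.73). Right, the arm ratio (log2) against the log2 of each array's 75th percentile of unscaled intensity (r = -0.79). Colours mark the slide, and the brightest arrays, both of AP, lie at the right end with low ratios.

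Among the 12 hairpins with both arms detected on all arrays, the arm ratio of miR-142 had the fourth lowest SD over the arrays, 0.24. The ratios of miR-140 (0.11), miR-532 (0.18) and miR-30e (0.22) varied least, and those of miR-125a (0.83), miR-652 (0.71) and miR-144 (0.48) most. Of the other 11 hairpins, 7 had a ratio that fell with array brightness and 4 one that rose, with r from -0.76 for miR-652 to 0.81 for miR-324. The r of -0.79 for miR-142 was the lowest of the 12.

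The probes of each arm were also compared on their own. On all arrays the same probe was the brighter for miR-142-3p, with 65.8% to 70.4% of its total, while the probes of miR-142-5p shared its total nearly evenly, with 50.1% to 52.5% for the brighter. Scaled probe levels correlated over the 24 arrays with r = 0.87 for miR-142-3p and 0.98 for miR-142-5p, as a description. With either probe alone, limma called 0 of 19 comparisons for each arm and for the ratio.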

How the data were processed

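Per the labels and the study's methods, PBMC were isolated on a Ficoll gradient and total RNA was labelled with Cy3. Per the file headers, Agilent Feature Extraction 10.7.3.1 quantified the scans. The deposited scanner files hold background-corrected linear intensity values, not normalised between arrays. The submitters' processing notes also name RMA. The authors' deposited table holds log2 values of the same arrays. Its columns have medians from 2.90 to 2.92 and correlate with the scanner values at 0.989 to 0.997, and its exact normalisation is unknown.

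Here each array was scaled to a common 75th percentile over the 132 miRNAs detected on all arrays, with a floor at 5.76 (2.53 on the log2 scale), far below both arms. One limma model (version 3.58.1, R 4.3.3) with 12 group means was fitted to 24 arrays and left 12 residual degrees of freedom. Two-sided p-values had Benjamini-Hochberg adjustment over 210 miRNAs (12 hairpins for the arm ratio), and calls were made at an adjusted p under 0.05. The fit was tested on simulated data. Correlations had permutation tests (100000 resamples, or exact within slides). The hairpin was folded with ViennaRNA 2.7.2. Named miRNAs are the 5 most correlated with each arm, the leukocyte list, and the 3 hairpins whose ratios varied most and the 3 that varied least. Members and lists were chosen with earlier results of these data known.

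Alternatives were other scalings, signals, filters and floors, each probe alone, the arrays compared alone, a replicate block, the study's threshold (fold over 2, unadjusted p under 0.05), and leaving out each array. Leaving out both of the brightest arrays, setting the arm ratio against array brightness, and the spread and interval ends under other settings were chosen after seeing the data. Each group lies on 1 slide, so no slide block could be fitted. The labels' replicate numbers do not mark shared animals. The p-values of limma rest on the spread within groups, pooled over the 12 groups of 2 arrays and moderated over the miRNAs or hairpins tested. The number of arrays limits the precision.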

Additional observations from a re-analysis of the deposited data

How the results depend on the processing

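Without scaling between arrays, limma called 2 of 19 comparisons for miR-142-3p and 1 for miR-142-5p. These were AP at 34 days against RA at T0 (1.32 for miR-142-3p and, with its sign turned, 1.00 for miR-142-5p) and AP against PLA at 34 days for miR-142-3p (1.07). There 62.9% and 59% of all 210 miRNAs were called. Dropping the scaling shifts every miRNA whose values lie above the floor by 1.19 and 1.04. Under the other alternatives, and without each array in turn (0 to 0 for each arm and the ratio), 0 comparisons were called. The F tests over 12 groups kept their side of the threshold, with F without each array in turn from 0.30 to 1.00 for miR-142-3p, 0.28 to 1.01 for miR-142-5p and 0.44 to 1.66 for the ratio.

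Small differences changed sign. Without scaling, RA minus NORA at T0 was 0.081 and AP minus MTX at 34 days 0.46 for miR-142-3p, and for miR-142-5p AP at 34 days was above PLA by 0.64 and above MTX by 0.093. With the 75th percentile over all miRNAs, miR-142-3p gave 0.16 for RA minus NORA, -0.073 for AP at 34 days minus RA and -0.20 for AP minus PLA, and miR-142-5p gave 0.021 for RA minus NORA. AP minus PLA at 34 days for miR-142-3p was -0.087 with the median and -0.022 with the summed intensity. Without the brightest arrays it was -0.15, and AP minus RA was -0.051. In the authors' table AP minus MTX was 0.21 for miR-142-3p, and RA minus NORA was 0.043 for the ratio.

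Leaving out each array gave, for miR-142-3p, -0.34 to 0.23 for RA minus NORA, -0.16 to 0.41 for AP minus RA, -0.015 to 0.55 for MTX minus RA, -0.15 to 0.20 for AP minus PLA and -0.32 to 0.030 for AP minus MTX. For miR-142-5p it gave -0.58 to 0.20 for RA minus NORA, -0.58 to 0.20 for AP minus RA, -0.24 to 0.87 for MTX minus RA and -1.06 to 0.046 for AP minus MTX, with a lone array assumed to vary like the other groups. For these the array that turned the sign was in the comparison, and no call was made either way.

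The correlation of both arms was not past 0.05 in the authors' table (r = 0.24) or over group means (0.46). The causes were not tested. With the replicate block, 0 of 19 comparisons were called for either arm or the ratio (F = 0.44, 0.33 and 0.59). Replicate differences correlated between groups at a median of -0.03 (-0.77 to 0.84 over 66 pairs of groups). With so wide a range, this cannot tell whether the numbers pair some of the arrays. With 2 arrays a group, the 95% intervals of miR-142-5p are wide, and their far ends lie between 1.82-fold and 2.55-fold.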
